A study of Mus musculus with 12 samples.

Results

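The granulocyte-monocyte transcription factor genes Cebpa, Cebpb, Cebpd, Cebpe, Spi1 and Gfi1 were followed across all groups. They were chosen by name and by no threshold on measured values, with earlier results of these data known, and make up 6 of the 55471 genes in the table. All 6 passed the filter on low counts. Cebpa fell by 1.58 on the log2 scale in Hoxa9 knockout cells and by 1.33 in the double knockout of Hoxa9 and β-catenin. In the double knockout Cebpb was higher and Gfi1 lower. In Prmt1 knockout cells Spi1 and Cebpd were higher, and the Cebpd call was lost without 1 of the wild-type libraries. Gfi1 passed the test narrowly (adjusted p = 0.0499), and its call did not hold when any 1 library of the contrast was left out. Cebpa did not pass the test.

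The C/EBP proteins are leucine zipper factors that bind DNA as dimers. C/EBPα starts the granulocyte-monocyte programme in progenitors, C/EBPβ supports granulocyte production under stress and monocyte maturation, and C/EBPε acts late, in the neutrophil precursors that make secondary granules. PU.1, the product of Spi1, is an Ets factor needed for myeloid and B cell development and acts at many of the same genes as C/EBPα. GFI1 is a zinc finger repressor that recruits the demethylase LSD1 and histone deacetylases, favours granulocytes over monocytes and restrains stem cell cycling.

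RNA was sequenced from mouse LSK cells, a bone marrow fraction sorted for Sca1 and Kit without lineage markers that holds blood stem cells and early progenitors. The study asks how β-catenin and Hoxa9 maintain these cells and what part the arginine methyltransferase Prmt1 has in that. The cells of every group were taken 6 weeks after tamoxifen from mice of a primary transplant, and each group had 2 libraries. The groups were WT, HOXA9_KO (Hoxa9), Bcat_KO (β-catenin, gene Ctnnb1), dKO (β-catenin and Hoxa9), PRMT1_KO (Prmt1), and WT_PRMT1, the wild type of the Prmt1 experiment. The sample titles say KO and the genotype field says knockdown for the same samples. The alleles, the driver of recombination, the strain and the age were not given in the sources used here. Nothing states that replicate libraries are from different mice, and the spread behind each p-value may be technical. Libraries are named by group and by the S tag of their column.

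Library totals ran from 17569709 to 40553891 counts. Hoxa9 stood at 8.36 to 12.2 CPM (counts scaled to the library size, with TMM) in HOXA9_KO and dKO and at 41.1 to 61.9 in the other groups. Prmt1 was at 112 and 118 CPM in PRMT1_KO against 283 and 292 in WT_PRMT1, and Ctnnb1 was at 227 to 276 CPM in Bcat_KO and dKO against 315 and 342 in WT. Kit and Ly6a (Sca1), which define the sort, were present in every group, at means of 142 to 427 and 74.0 to 284 CPM. Xist RNA was at 163 to 202 CPM in the WT and WT_PRMT1 libraries, 11.2 and 21.9 in Bcat_KO and at most 0.76 in the rest, whereas the Y-linked Ddx3y ranged from 60.6 to 93.5 CPM over the knockout libraries and reached 2.87 at most in the wild types. Each contrast of a knockout with its wild type therefore carries this difference as well, and genotype and this difference cannot be told apart there. The contrasts of dKO with HOXA9_KO and with Bcat_KO are between libraries that all have Ddx3y. That of dKO with Bcat_KO still carries the difference in Xist RNA. A summed list of 12 B cell genes was at 886 to 1193 CPM in the wild types and at 77.4 to 469 in the knockouts.

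On GRCm38, Cebpa (ENSMUSG00000034957) lies at chr7:35119293-35121928 on the plus strand, Cebpb (ENSMUSG00000056501) at chr2:167688915-167690418 on the plus strand, and Cebpd (ENSMUSG00000071637) at chr16:15887286-15891031 on the plus strand. Each of these genes covers 1 exon block in the count table. Cebpe (ENSMUSG00000052435) lies at chr14:54710360-54712174 on the minus strand with 2 exon blocks, Spi1 (ENSMUSG00000002111) at chr2:91082390-91115756 on the plus strand with 7, and Gfi1 (ENSMUSG00000029275) at chr5:107716657-107726036 on the minus strand with 8. Annotated exons of 4 genes share bases with a gene on the opposite strand: 51 bases of Cebpa with Gm45091, 312 of Cebpb with Tmem189, 562 of Cebpd with Spidr and 101 of Gfi1 with A430072P03Rik. The strand setting of the counting was not given, so reads from these stretches may be shared. Gm45091 had at most 30 counts and A430072P03Rik at most 61 in any library.

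Promoter sequences are shown for Cebpa, Cebpb and Gfi1, the 3 of the 6 members with an entry in the RefSeq promoter set (GRCm38.p6). These 3 were called in dKO against WT, as was Cebpd, which had no entry. Cebpa is at chr7:35119043-35119292, plus strand, and Cebpb at chr2:167688665-167688914, plus strand, each the 250 bases before the start. Gfi1 is at chr5:107725806-107725954, minus strand, the 149 bases between the start and an exon of other Gfi1 transcripts. Capitals mark motif matches.
Cebpa: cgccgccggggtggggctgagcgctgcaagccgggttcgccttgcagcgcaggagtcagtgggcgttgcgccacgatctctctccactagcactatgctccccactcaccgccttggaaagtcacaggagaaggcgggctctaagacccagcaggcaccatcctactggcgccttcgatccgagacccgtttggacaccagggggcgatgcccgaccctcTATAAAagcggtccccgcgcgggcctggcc
Cebpb: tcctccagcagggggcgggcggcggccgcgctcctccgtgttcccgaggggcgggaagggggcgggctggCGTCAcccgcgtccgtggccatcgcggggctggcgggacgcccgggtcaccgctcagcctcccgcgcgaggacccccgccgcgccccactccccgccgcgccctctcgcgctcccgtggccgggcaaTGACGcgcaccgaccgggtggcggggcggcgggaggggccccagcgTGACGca
Gfi1: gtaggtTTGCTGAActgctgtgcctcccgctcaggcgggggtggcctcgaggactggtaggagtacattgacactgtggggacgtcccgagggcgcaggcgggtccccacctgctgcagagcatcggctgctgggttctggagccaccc
For each gene 7 motifs were searched on both strands of the 250 bases before the start, and no matches of different motifs overlapped. They were C/EBP TTGCNNAA (in 9.56% of 32851 promoters of the same length), Ets AGGAAG (29.5%), GFI1 AATCNNNGC (8.87%), posterior Hox GATTTAT (2.52%), TCF/LEF CTTTGAT (3.21%), the TATA box TATAAA (12.4%) and the cAMP response element half-site TGACG (17.8%). The Cebpa window held 1 TATA box, 30 bases before the start. The Cebpb window held 3 TGACG half-sites, starting 180 bases before the start on the minus strand and 53 and 7 bases before it on the plus strand. The Gfi1 window held 1 C/EBP match, 143 bases before the start. G and C made up 66.4%, 81.6% and 59.2% of the 250 bases of Cebpa, Cebpb and Gfi1. A match here is a run of letters and was not tested as a binding site.

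Levels were compared per length in TPM (counts divided by gene length and scaled to the sum of the library, without TMM). Averaged over the 12 libraries, Spi1 was the most abundant member at 135 TPM. This placed it at the 95.4th percentile of 20622 protein-coding genes. Cebpb followed at 103 TPM and Cebpa at 64.1 TPM, with Gfi1 at 16.2, Cebpd at 9.74 and Cebpe at 9.44. This order was not the same in every group. In WT the mean TPM of Spi1 was 119 ± 0.617 (SD, n = 2), of Cebpb 85.2 ± 7.55 and of Cebpa 74.7 ± 6.93. In dKO Cebpb stood first at 142 ± 59.8 TPM, ahead of Spi1 at 81.1 ± 1.10 and Cebpa at 25.1 ± 0.348. TPM and CPM differ in scaling between libraries: in CPM, Cebpa in dKO was at 28.5 ± 5.63.

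**Figure D1:**
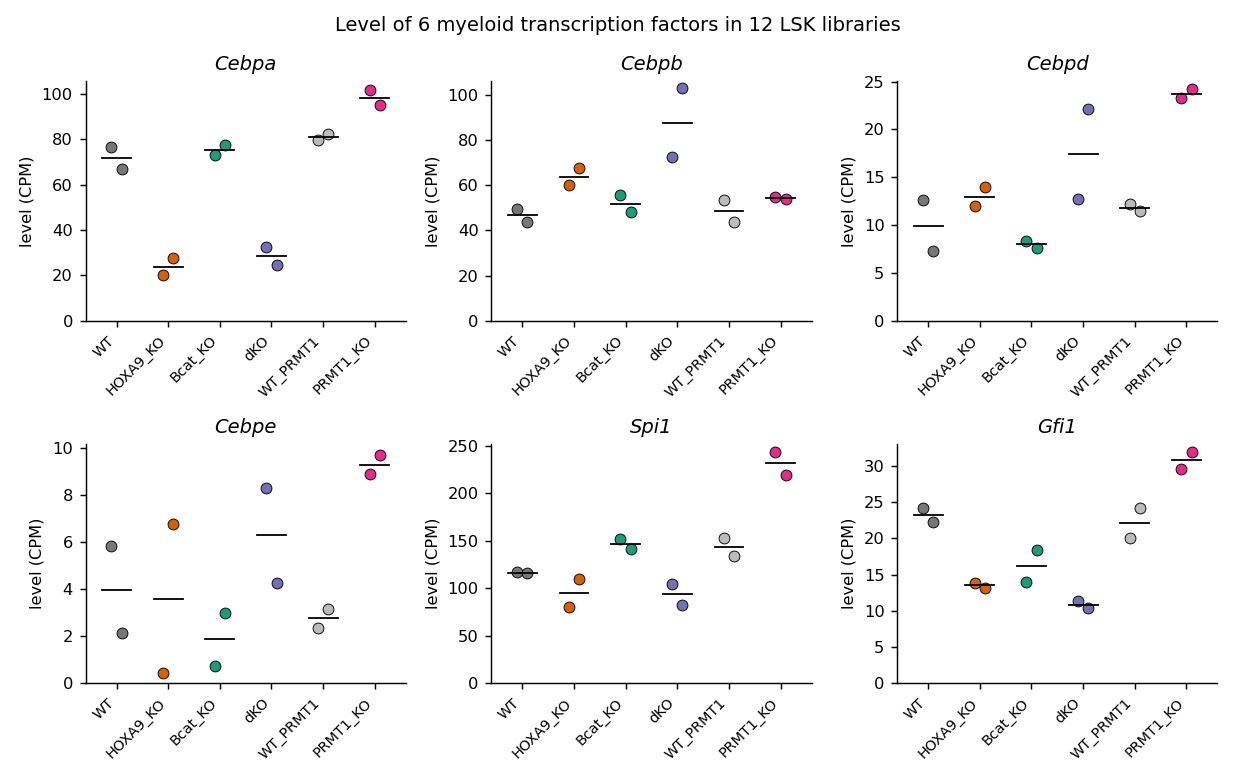
Level of each of the 6 genes in CPM (linear axes from 0, library sizes scaled by TMM); each point is 1 library and each bar the mean of a group of 2. Both HOXA9_KO and both dKO libraries lie below all others for Cebpa, between 20.3 and 32.4 CPM, and both PRMT1_KO libraries lie above all others for Spi1, at 219 and 244 CPM.

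The groups were compared by edgeR's quasi-likelihood test over 17063 genes, and a gene is called higher or lower at a Benjamini-Hochberg adjusted p under 0.05. Changes are log2 fold changes ± SE. Where a call is said to be kept or lost without a library, only libraries of the groups compared were left out. In HOXA9_KO against WT, 0 members were called higher and 2 lower (Cebpa and Gfi1), where 4.44% of all tested genes were called higher and 2.30% lower. In Bcat_KO against WT no member was called, with 7.48% of all genes higher and 9.76% lower. There, 2 members (Spi1 and Gfi1) had an unadjusted p under 0.05 and DESeq2 called 1. In dKO against WT, 2 were called higher (Cebpb and Cebpd) and 2 lower (Cebpa and Gfi1), beside 9.15% and 8.52% of all genes. These 3 contrasts share the WT libraries, so their values for a gene are not independent.

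In dKO against HOXA9_KO no member was called, where 0.416% of all genes were called higher and 1.33% lower. There, 1 member, Cebpb, had an unadjusted p under 0.05, and DESeq2 called 0. In dKO against Bcat_KO, 2 members were called higher (Cebpb and Cebpd) and 3 lower (Cebpa, Spi1 and Gfi1), beside 16.2% and 12% of all genes. Departure of dKO from the sum of the 2 single knockouts on the log2 scale was called for 0 members, beside 4.54% of all genes above and 3.90% below additivity. No member had an unadjusted p under 0.05 for departure and DESeq2 called 0. In PRMT1_KO against WT_PRMT1, 3 members were called higher (Cebpd, Spi1 and Gfi1) and 0 lower, beside 16.6% and 16.0% of all genes. Between the wild types, WT_PRMT1 against WT, 0 members were called, 0 had an unadjusted p under 0.05 and DESeq2 called 0, beside 3.71% of all genes higher and 3.87% lower. The median change of the 6 members was -0.21 for HOXA9_KO, -0.12 for Bcat_KO, 0.17 for dKO and 0.58 for PRMT1_KO, each against its wild type, and that of all tested genes was -0.0041, -0.038, 0.0069 and -0.030.

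**Figure D2:**
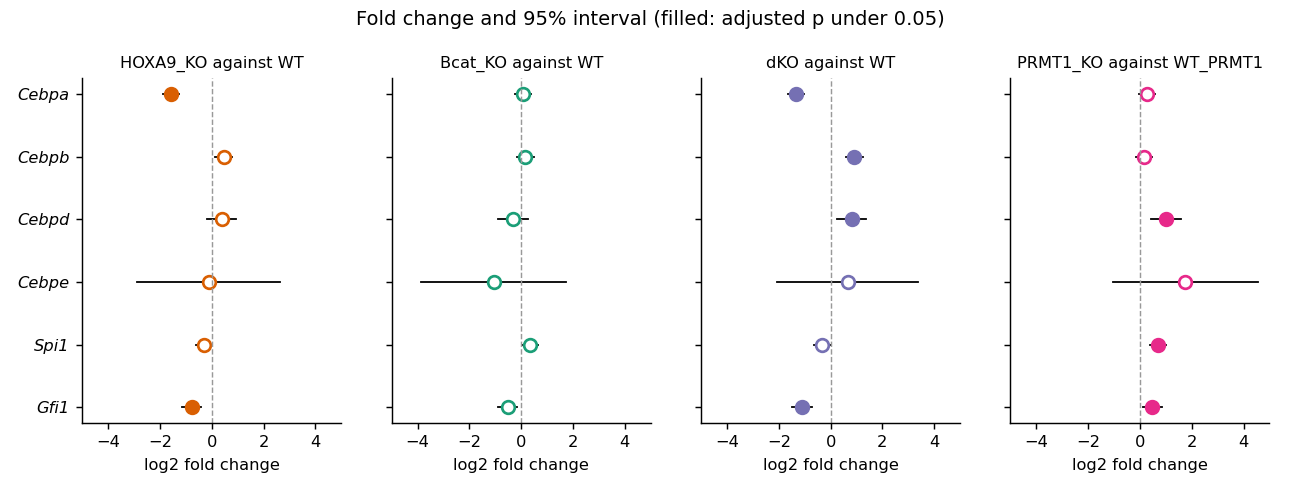
Log2 fold change of each member against its wild type in 4 contrasts, with the 95% interval of the quasi-likelihood fit; filled points have an adjusted p under 0.05. Cebpa is filled in HOXA9_KO and dKO, Spi1 in PRMT1_KO, and the interval of Cebpe spans 0 in all 4 panels.

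Cebpa, which encodes the factor that opens the granulocyte-monocyte route, was low wherever Hoxa9 was targeted. The 2 WT libraries had 76.6 and 66.9 CPM of Cebpa, those of HOXA9_KO 20.3 and 27.5, Bcat_KO 73.0 and 77.3 and dKO 32.4 and 24.5. For Cebpa the WT_PRMT1 values were 79.6 and 82.1 CPM, beside PRMT1_KO values of 102 and 94.9. The 4 libraries of HOXA9_KO and dKO overlapped between groups and lay below the other 8, and WT and Bcat_KO overlapped. These are bulk libraries, in which fewer cells of a type and less RNA per cell cannot be told apart.

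The change in Cebpa was -1.58 ± 0.15 in HOXA9_KO (adjusted p = 4.63e-06) and -1.33 ± 0.15 in dKO (1.03e-05) against WT. Against Bcat_KO it was -1.40 ± 0.15 in dKO (6.69e-06). Both of these groups have Ddx3y, but Xist RNA was at 11.2 and 21.9 CPM in Bcat_KO and at 0.62 and 0.42 in dKO. Each of these Cebpa calls was kept when any 1 library of the groups compared was left out. The change in Bcat_KO against WT was 0.07 ± 0.14 (adjusted p = 0.794), with a 95% interval from -0.23 to 0.37. That in dKO against HOXA9_KO was 0.25 ± 0.15 (0.551), with an interval from -0.06 to 0.56. In PRMT1_KO both libraries lay above both of WT_PRMT1, but the change of 0.28 ± 0.14 was not called (0.152), except with the 4 libraries of that experiment alone (0.0172).

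The LSK and progenitor genes did not move as 1 block beside Cebpa. Of 9 such genes 4 were called higher and 2 lower in HOXA9_KO, with a median change of 0.47, and 3 higher and 4 lower in dKO, with a median of 0.52. Mean levels of Cd34 and Flt3 were 740 and 479 CPM for WT, 383 and 164 for HOXA9_KO, and 226 and 108 for dKO, whereas those of Kit were 270, 407 and 386 CPM and those of the stem cell marker Slamf1 8.09, 40.3 and 55.6 CPM. The summed level of the 9 genes, in which Cd34 and Flt3 weigh most, was 2087 and 1908 CPM in the WT libraries, 1673 and 1412 for HOXA9_KO, 1317 and 1363 for dKO and 1911 and 1947 for Bcat_KO. WT_PRMT1 had sums of 1607 and 1679 CPM, and PRMT1_KO had 2105 and 2002. Over the 12 libraries the correlation of Cebpa with this sum was 0.77 (Pearson, log2 values), and with that of 14 late neutrophil genes 0.01. The late neutrophil sum was 87.7 and 1246 CPM in the HOXA9_KO libraries, at Cebpa levels of 20.3 and 27.5 CPM. The part of a shift among progenitors or other cell types in the Cebpa result was not tested.

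Cebpb, whose product takes part in emergency granulopoiesis, was higher in dKO. The 2 WT libraries had 49.7 and 43.7 CPM of Cebpb, those of HOXA9_KO 60.3 and 67.5, Bcat_KO 55.6 and 48.0 and dKO 72.4 and 103. For Cebpb the WT_PRMT1 values were 53.7 and 44.0 CPM, beside PRMT1_KO values of 55.0 and 53.9. The dKO libraries were the highest of the 12, the HOXA9_KO libraries came next, and the other 4 groups lay between 43.7 and 55.6 CPM.

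Cebpb rose by 0.91 ± 0.15 in dKO against WT (adjusted p = 0.000607) and by 0.76 ± 0.15 against Bcat_KO (0.00176). Both calls were kept without any 1 library. In HOXA9_KO the change of 0.45 ± 0.15 was not called (0.0981), although both libraries lay above both of WT, and it passed the threshold without the count filter (0.00667) and with the compared groups alone (0.0354). The step from HOXA9_KO to dKO was 0.46 ± 0.15 (0.177), with a 95% interval from 0.14 to 0.78, and was called without dKO S6 (0.00586). Tmem189, the gene on the opposite strand, was called in none of the 8 comparisons, with 17.3 to 25.5 CPM.

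Within a library, Cebpb and Cebpa were near equal per length in the groups where Hoxa9 was not targeted and far apart in those where it was. The ratio of Cebpb to Cebpa TPM was 1.14 in both WT libraries, 1.34 and 1.09 for Bcat_KO, 1.18 and 0.938 for WT_PRMT1, and 0.948 and 0.996 for PRMT1_KO. HOXA9_KO libraries reached 5.20 and 4.30, and dKO libraries 3.91 and 7.39. Cebpa made up 41.0 to 47.2% of the summed TPM of the 4 C/EBP members in the 8 libraries of those first groups and 10.6 to 17.4% in the 4 of HOXA9_KO and dKO, and Cebpb made up 41.3 to 54.8% and 68.2 to 78.7%. The summed TPM itself was 143 and 162 in HOXA9_KO and 145 and 234 in dKO, against 192 and 160 in WT, so these ranges overlapped.

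**Figure D3:**
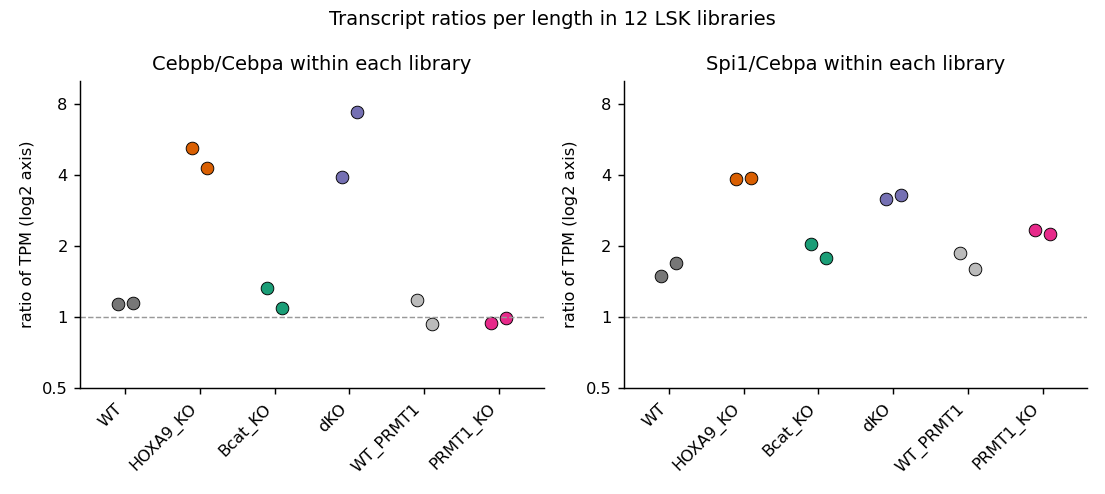
Ratio of Cebpb to Cebpa (left) and of Spi1 to Cebpa (right) in TPM within each of the 12 libraries, on log2 axes; each point is 1 library. The HOXA9_KO and dKO libraries lie between 3.91 and 7.39 on the left and between 3.16 and 3.89 on the right, above all other libraries.

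Cebpd, an acute-phase C/EBP induced by cytokines, was highest in PRMT1_KO. The 2 WT libraries had 12.7 and 7.26 CPM of Cebpd, those of HOXA9_KO 11.96 and 13.9, Bcat_KO 8.39 and 7.64 and dKO 12.7 and 22.1. For Cebpd the WT_PRMT1 values were 12.2 and 11.5 CPM, beside PRMT1_KO values of 23.3 and 24.2. Both PRMT1_KO libraries lay above the other 10, whereas the dKO libraries differed by 1.73-fold and the lower one lay just above WT S1.

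Cebpd rose by 1.01 ± 0.27 in PRMT1_KO (adjusted p = 0.00770) and by 1.12 ± 0.27 in dKO against Bcat_KO (0.00531). Against WT it rose by 0.81 ± 0.27 in dKO (0.0475). The first call was lost without WT_PRMT1 S11 (0.0540) and the second without dKO S7 (0.112). The call against WT was lost without dKO S7 (0.596, with a change of 0.35) or WT S2 (0.413), with library-size scaling (0.0628) and with the compared groups alone (0.208). Spidr, which shares 562 bases with Cebpd on the opposite strand, went the other way: it fell by 1.71 ± 0.15 in PRMT1_KO (2.02e-07) and by 0.75 ± 0.15 in dKO against Bcat_KO (0.00112).

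Cebpe, which drives secondary granule genes in neutrophil precursors, varied most between the libraries of WT, HOXA9_KO, Bcat_KO and dKO among the 6 members. The 2 WT libraries had 5.86 and 2.13 CPM of Cebpe, those of HOXA9_KO 0.437 and 6.78, Bcat_KO 0.762 and 2.99 and dKO 8.32 and 4.25. For Cebpe the WT_PRMT1 values were 2.38 and 3.15 CPM, beside PRMT1_KO values of 8.88 and 9.72. The HOXA9_KO values rest on 8 and 163 counts and differed by 15.5-fold, and the 4 groups of the β-catenin and Hoxa9 experiment overlapped except dKO and Bcat_KO.

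Cebpe was called in none of the 8 comparisons. The PRMT1_KO libraries were the highest of the 12, but the change of 1.75 ± 1.17 had a 95% interval from -1.06 to 4.55 (adjusted p = 0.322). This fit estimates the spread of each gene over all groups together. With the 4 libraries of that experiment alone it was called, at a change of 1.73 (0.000160). Its departure from additivity in dKO, 1.85 ± 1.62 (0.557), was called without HOXA9_KO S5 (0.0377).

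Cebpe moved with the genes of later neutrophils. The summed level of 14 late neutrophil genes, among them Ltf, Ngp, Camp and S100a8, reached 1827 and 467 CPM in the WT libraries, 87.7 and 1246 in those of HOXA9_KO, 19.6 and 32.9 for Bcat_KO and 2517 and 1629 for dKO. WT_PRMT1 libraries had sums of 768 and 852 CPM, and PRMT1_KO libraries 2671 and 2219. In every group of the β-catenin and Hoxa9 experiment the library with the higher sum had the higher Cebpe level, but not in PRMT1_KO. Over the 12 libraries the correlation with the sum was 0.80 for Cebpe and 0.70 for Cebpd (Pearson, log2 values). It was 0.27 for Cebpb, 0.25 for Gfi1, 0.13 for Spi1 and 0.01 for Cebpa. Cebpe and Cebpd also correlated with the sum of 7 mast cell and basophil genes, at 0.63 and 0.67. With the sum of 12 monocyte and macrophage genes their correlations were 0.55 and 0.54. These points share library and depth, and the part of neutrophil RNA in the levels of Cebpe and Cebpd was not tested. In Bcat_KO 4 and 5 of the 14 genes had no count, Ltf, Mmp9, Retnlg and Ly6g in both libraries, and Cebpe was counted 24 and 127 times.

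**Figure D4:**
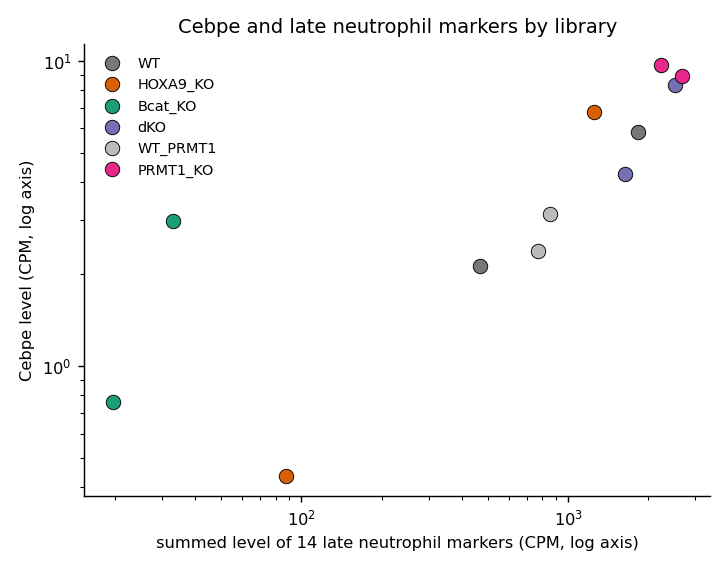
Cebpe level (CPM) against the summed level of 14 late neutrophil genes (CPM) on log axes; each point is 1 library, coloured by group. The HOXA9_KO libraries lie far apart on both axes, at 0.437 and 6.78 CPM of Cebpe, and the PRMT1_KO libraries lie together at the top right.

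Spi1, which encodes PU.1, was high in PRMT1_KO. The 2 WT libraries had 117 and 116 CPM of Spi1, those of HOXA9_KO 80.1 and 109, Bcat_KO 152 and 141 and dKO 105 and 82.3. For Spi1 the WT_PRMT1 values were 153 and 134 CPM, beside PRMT1_KO values of 244 and 219. The PRMT1_KO libraries stood above the other 10, Bcat_KO and WT_PRMT1 overlapped above WT, and HOXA9_KO and dKO overlapped below WT.

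Spi1 rose by 0.69 ± 0.14 in PRMT1_KO (adjusted p = 0.00274), a 1.61-fold higher mean, and this call was kept without any 1 library. It fell by 0.65 ± 0.14 in dKO against Bcat_KO (0.00609), a call lost without Bcat_KO S3 (0.0662). Against WT the change was -0.30 ± 0.14 in HOXA9_KO (0.291), 0.33 ± 0.14 in Bcat_KO (0.138) and -0.32 ± 0.14 in dKO (0.173), none of them called. The first was called without HOXA9_KO S5 (0.0208), and the last without dKO S6 (0.0210) and with no filter (0.0369). The change in Bcat_KO was called with library-size scaling (0.0429), with no filter (0.0213) and with the compared groups alone (0.0200). The wild types themselves differed by 0.30 ± 0.14 (0.285), about as much as these contrasts.

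The balance of Spi1 and Cebpa differed between groups, described here without a test. The ratio of Spi1 to Cebpa TPM was 3.86 and 3.89 for HOXA9_KO and 3.16 and 3.29 for dKO. It was 1.5 and 1.70 for WT, 2.03 and 1.79 for Bcat_KO, 1.88 and 1.59 for WT_PRMT1, and 2.35 and 2.25 for PRMT1_KO. The HOXA9_KO and dKO libraries lay above the other 8. The summed level of 12 monocyte and macrophage genes was 1352 and 1464 CPM for WT_PRMT1 and 2018 and 1889 for PRMT1_KO. It was 387 and 341 CPM for WT, so the wild types differed as well. The summed level of 7 mast cell and basophil genes was 52.4 and 75.6 CPM for WT_PRMT1 and 365 and 381 for PRMT1_KO, where none of the 7 was at 0. Over the 12 libraries Spi1 correlated at 0.74 with the monocyte sum, 0.80 with the mast cell sum and 0.64 with the LSK and progenitor sum (Pearson, log2 values). The part of shifts among cell types in the Spi1 result was not tested.

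Gfi1, which encodes the repressor that favours granulocytes, was lower in HOXA9_KO and dKO than in WT. The 2 WT libraries had 24.2 and 22.3 CPM of Gfi1, those of HOXA9_KO 13.9 and 13.1, Bcat_KO 13.98 and 18.3 and dKO 11.3 and 10.4. For Gfi1 the WT_PRMT1 values were 20.0 and 24.2 CPM, beside PRMT1_KO values of 29.5 and 31.9. Each knockout group lay apart from its wild type, below it in the β-catenin and Hoxa9 experiment and above it in the Prmt1 experiment, and dKO was the lowest of all. Over all libraries Gfi1 correlated at 0.79 with the LSK and progenitor sum and at 0.65 with the monocyte sum (Pearson, log2 values). The part of shifts among cell types in the Gfi1 result was not tested.

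Gfi1 fell by 1.10 ± 0.18 in dKO against WT (adjusted p = 0.000349), and this call was kept without any 1 library. It fell by 0.78 ± 0.18 in HOXA9_KO (0.0122), a call lost without WT S1 (0.111), HOXA9_KO S4 (0.0594) or HOXA9_KO S5 (0.0764). In Bcat_KO the change of -0.52 ± 0.18 just missed the threshold (0.0515), and it was called with DESeq2 (0.0393), with a filter at a mean of 5 CPM (0.0460) and without Bcat_KO S4 (0.0348). In dKO against Bcat_KO it fell by 0.57 ± 0.18 (0.0243), a call lost without Bcat_KO S4 (0.284) or dKO S7 (0.129) and with the compared groups alone (0.108). The departure of dKO from additivity was 0.21 ± 0.25 (0.672). In PRMT1_KO Gfi1 rose by 0.47 ± 0.18 (0.0499), which missed the threshold when any 1 of the 4 libraries was dropped (0.0602 to 0.322), with library-size scaling (0.179) and with no filter (0.0792).

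Of 12 further C/EBP and partner leucine zipper genes, 0 were called higher and 2 lower in HOXA9_KO, 0 and 2 for Bcat_KO, 1 and 3 for dKO and 3 and 4 for PRMT1_KO. The shares of all genes called higher and lower were 4.44% and 2.30% for HOXA9_KO, 7.48% and 9.76% for Bcat_KO, 9.15% and 8.52% for dKO, and 16.6% and 16.0% for PRMT1_KO, and they are the background for this list and the 4 lists that follow. Cebpg, an inhibitory C/EBP that dimerises with the others, fell by 0.68 ± 0.12 in dKO against WT (adjusted p = 0.000619), and this call was kept without any 1 library. Its change was -0.44 ± 0.12 in HOXA9_KO (0.0362, lost without either WT library or HOXA9_KO S4) and -0.51 ± 0.12 in Bcat_KO (0.00810, lost without WT S1). Atf4, the main factor of the amino acid response, fell by 0.44 ± 0.09 in HOXA9_KO (0.00808) and 0.43 ± 0.09 in dKO (0.00364), both lost without WT S1. In PRMT1_KO Batf3, needed for a class of dendritic cells, fell by 3.60 ± 0.55 (6.06e-05), while Batf rose by 1.14 ± 0.20 (0.000231). Batf3 already differed between the wild types, at a mean of 7.46 CPM in WT_PRMT1 and 1.79 in WT (2.05 ± 0.49, 0.0151). The median change of the list was 0.01 in HOXA9_KO, -0.04 in dKO and -0.00038 in PRMT1_KO, near those of all genes given above.

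A list of 4 genes held those for the Tribbles pseudokinases and the ubiquitin ligase COP1. TRIB1 and TRIB2 act with COP1 to degrade C/EBPα protein, a role not ascribed here to TRIB3. Of the 4 genes, 0 were called in HOXA9_KO, where Cebpa was lowest, and 1 lower for Bcat_KO. For dKO 1 was called higher and 1 lower, and for PRMT1_KO 1 higher. The median changes were -0.07, -0.38, 0.66 and 0.27. With 4 genes, these counts against wild type do not stand apart from the shares of all genes called. In dKO Trib3 rose by 1.53 ± 0.32 (adjusted p = 0.00261), a call lost without dKO S7, and Cop1 fell by 0.36 ± 0.10 (0.0156), lost without either WT library or dKO S7. Trib3 rose by 1.27 ± 0.33 in PRMT1_KO (0.00564), lost without WT_PRMT1 S10. Trib1 differed by -0.17 ± 0.13 in HOXA9_KO (0.554) and by 0.17 ± 0.13 in dKO (0.441). In dKO against Bcat_KO 2 of the 4 were called higher, beside 16.2% of all genes, both kept without any 1 library. They were Trib2 (2.73 ± 0.47, adjusted p = 0.000373), at means of 6.54 and 0.989 CPM, and Trib3 (2.19 ± 0.33, 0.000116). The same 2 were called above additivity, beside 4.54% of all genes, and neither call was kept without dKO S7.

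Among 17 transcription factors that act with PU.1 or beside it, Gata2 rose in the groups where Cebpa fell, but not only there. Gata2, a stem cell and mast cell GATA factor that antagonises PU.1, had a mean of 230 ± 20.0 CPM (SD, n = 2) in WT, 400 ± 21 for HOXA9_KO, 285 ± 1.15 for Bcat_KO and 498 ± 79.7 for dKO. Gata2 rose by 0.80 ± 0.10 in HOXA9_KO against WT (adjusted p = 6.29e-05), by 1.11 ± 0.10 in dKO (8.10e-07) and by 1.29 ± 0.10 in PRMT1_KO (4.28e-08), where Cebpa was not lower. In Bcat_KO, where Cebpa was not called, the mean of Gata2 was also above that of WT. Gata2 also differed between the wild types, by -1.34 ± 0.10 in WT_PRMT1 against WT (2.57e-07).

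Of these 17 genes, 1 was called higher and 0 lower in HOXA9_KO, 6 and 2 for Bcat_KO, 1 and 4 for dKO and 5 and 5 for PRMT1_KO. In Bcat_KO, Runx1, which controls Spi1 through its upstream enhancer, rose by 0.69 ± 0.10 (adjusted p = 0.000313), Etv6 by 0.68 ± 0.10 (0.000367) and Fli1 by 0.69 ± 0.12 (0.000716). The 6 higher calls in Bcat_KO became 3 when any 1 library of WT or Bcat_KO was left out. In PRMT1_KO the 5 higher and 5 lower calls became 3 and 3 without WT_PRMT1 S10 and 5 and 3 without PRMT1_KO S8, and the count in HOXA9_KO was near the share of all genes. The median change of the list was 0.09 for HOXA9_KO, 0.28 for Bcat_KO, 0.06 for dKO and -0.03 for PRMT1_KO. Myb, which maintains progenitor proliferation, fell by 0.66 ± 0.09 in dKO (3.45e-05), and its departure from additivity was -0.88 ± 0.12 (0.000342). Spib, the Ets relative of PU.1 used in B and plasmacytoid dendritic cells, fell by 4.98 ± 0.37 in Bcat_KO (4.15e-06), by 1.96 ± 0.31 in dKO (0.000707), and its change in PRMT1_KO was -3.06 ± 0.31 (7.51e-06). Spib already differed between the wild types, at a mean of 77.7 CPM in WT_PRMT1 and 14.6 in WT (2.41 ± 0.30, 0.000313), and PRMT1_KO stood at 9.31 CPM. The B cell sum was lower in these groups too, at 77.4 to 177 CPM against 886 to 1193 in the wild types, and its part in the Spib change was not tested.

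The GFI1 paralog gene Gfi1b rose in both groups where Gfi1 fell against WT. Gfi1b, which serves the erythroid and megakaryocyte lineages and is repressed by GFI1 in other cells, had a mean of 15.8 ± 1.90 CPM (SD, n = 2) in WT, 34.5 ± 2.42 in HOXA9_KO, 21.8 ± 2.38 in Bcat_KO and 37.2 ± 1.39 in dKO. Gfi1b rose by 1.13 ± 0.17 in HOXA9_KO against WT (adjusted p = 0.000527) and by 1.24 ± 0.17 in dKO (8.07e-05), both calls kept without any 1 library. In PRMT1_KO, where Gfi1 was higher, Gfi1b rose as well, by 0.68 ± 0.18 (0.00580), a call lost without WT_PRMT1 S11 or PRMT1_KO S8. Of the 10 paralog and corepressor genes, 1 was called higher and 0 lower in HOXA9_KO, 1 and 0 for Bcat_KO, 3 and 0 for dKO and 2 and 4 for PRMT1_KO. The 3 in dKO became 1 without WT S2 or dKO S7. In PRMT1_KO the 2 higher became 1 without WT_PRMT1 S10, WT_PRMT1 S11 or PRMT1_KO S8, and the 4 lower became 2 without PRMT1_KO S9. The lower calls in PRMT1_KO included Rcor2 (-1.52 ± 0.19, 6.38e-06) and Hdac2 (-0.54 ± 0.08, 5.40e-05). The median change of the list was 0.03 for HOXA9_KO, 0.22 for Bcat_KO, -0.01 for dKO and -0.04 for PRMT1_KO. Kdm1a, which encodes LSD1, was called in 1 of the 8 comparisons, dKO against Bcat_KO (-0.32 ± 0.09, 0.0108, lost without Bcat_KO S4 or dKO S7).

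A list of 18 granulocyte-monocyte genes known as targets of C/EBP factors or PU.1 was read beside the factors. In PRMT1_KO 11 of the 18 were called higher and 0 lower, where 16.6% of all genes were called higher, and their median change was 1.52 against -0.030 for all genes. The proteinase 3 gene Prtn3 rose from 163 ± 0.482 to 1145 ± 45.9 CPM (mean ± SD, n = 2), by 2.81 ± 0.23 (adjusted p = 7.24e-05). The integrin gene Itgam rose by 1.85 ± 0.35 (0.00104), the endotoxin coreceptor gene Cd14 by 1.82 ± 0.37 (0.000839) and the interleukin 6 receptor gene Il6ra by 0.82 ± 0.18 (0.00311). Il6ra already differed between the wild types, at a mean of 60.4 CPM in WT_PRMT1 and 21.7 in WT (1.48 ± 0.19, 0.000219). The count of 11 was 6 without WT_PRMT1 S10, 5 without WT_PRMT1 S11, 8 without PRMT1_KO S8 and 7 without PRMT1_KO S9, with 0 lower each time, and library-size scaling gave 10 higher and 1 lower. The late neutrophil, monocyte and mast cell sums given above were also higher in PRMT1_KO. Among their genes 1 of 14 late neutrophil genes, 2 of 12 monocyte genes and 4 of 7 mast cell genes were called higher, and 1 monocyte gene lower. That lower gene was Cd68 (-0.59 ± 0.21, adjusted p = 0.0356), which did not stay called whichever library of the contrast was dropped. The macrophage gene Mpeg1 was not called, at a mean of 744 CPM in WT_PRMT1 and 319 in PRMT1_KO. The monocyte chemokine receptor gene Ccr2, which was called higher, had 53.0 and 270 CPM. The part of such cells in these changes was not tested.

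In the groups where Cebpa fell, 2 of these targets were called lower, above the share of all genes in HOXA9_KO and near it in dKO. In HOXA9_KO 0 of the 18 were called higher and 2 lower (4.44% and 2.30% of all genes): Ncf4, an oxidase subunit gene (-0.67 ± 0.16, adjusted p = 0.0131), and Csf3r, the granulocyte colony-stimulating factor receptor gene (-0.38 ± 0.11, 0.0495). Their number was 0 without WT S1 or WT S2 and 4 without HOXA9_KO S5. The median change of the list was -0.40, against -0.0041 for all genes. In dKO 1 was called higher and 2 lower (9.15% and 8.52% of all genes), with a median of 0.30 against 0.0069 for all genes. Csf3r fell there by 0.77 ± 0.11 (adjusted p = 0.000103), a call kept without any 1 library.

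Csf3r fell in dKO and rose in Bcat_KO. Its mean was 103 ± 2.61 CPM (SD, n = 2) in WT, 79.3 ± 16.1 in HOXA9_KO, 173 ± 1.58 in Bcat_KO and 60.4 ± 2.66 in dKO. The rise in Bcat_KO was 0.75 ± 0.11 (adjusted p = 0.000234), and the departure from additivity in dKO was -1.14 ± 0.16 (0.000318), with the fall against Bcat_KO at 1.52 ± 0.11 (1.40e-07). In Bcat_KO 3 of the 18 were called higher, Csf3r, Prtn3 (1.19 ± 0.22, 0.0121) and Il6ra (0.67 ± 0.19, 0.0257), and 1 lower, Lyz2 (-0.88 ± 0.23, 0.0432), beside 7.48% and 9.76% of all genes, with a median of 0.61. Of these, Csf3r alone was still called without any 1 library of the contrast.

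**Figure D5:**
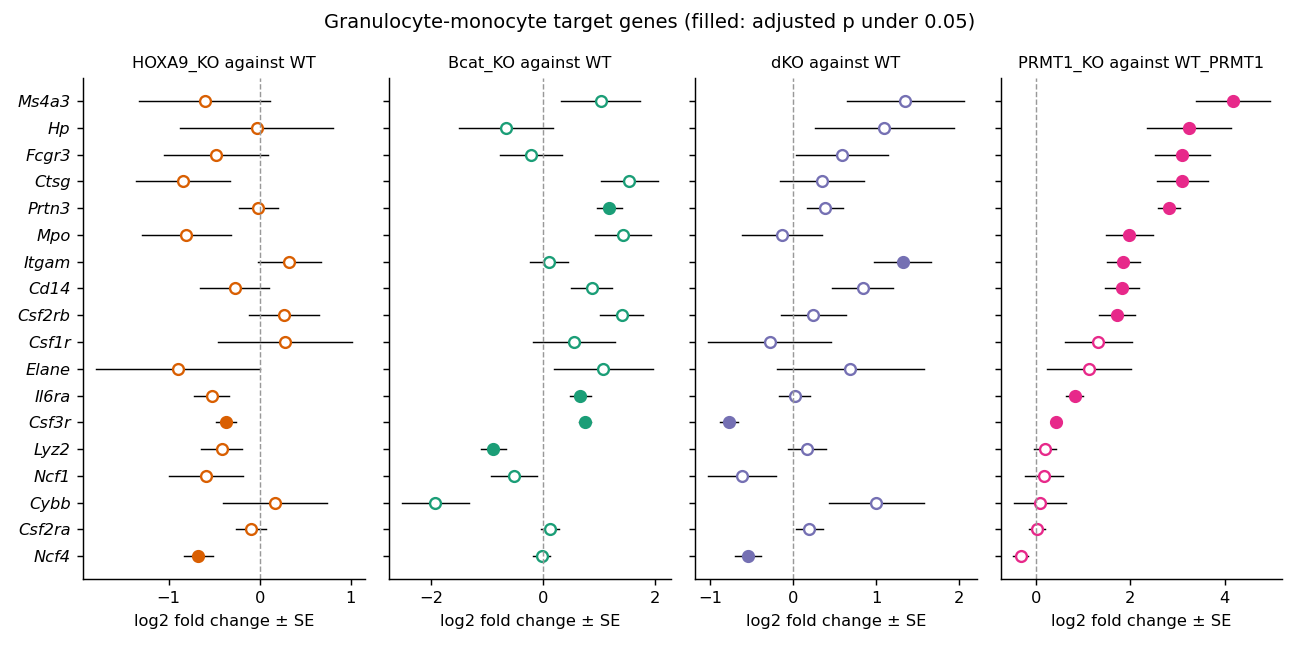
Log2 fold change ± SE of 18 granulocyte-monocyte target genes against the matching wild type in 4 contrasts, ordered by the change in PRMT1_KO; filled points have an adjusted p under 0.05, and each panel has its own scale. In PRMT1_KO 11 genes are filled and all lie to the right of 0, and in HOXA9_KO the 2 filled genes, Csf3r and Ncf4, lie to the left.

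Across the 12 libraries the members fell into patterns, given here as descriptions because the points share group means and libraries. Cebpa had a Pearson correlation of 0.85 with Spi1, 0.84 with Gfi1, -0.73 with Cebpb and -0.07 with Cebpd (log2 CPM). Spi1 and Gfi1 correlated at 0.77, Cebpb and Gfi1 at -0.74, and Cebpd and Cebpe at 0.59. Among 11157 protein-coding genes with a mean of at least 2 CPM, the gene most like Cebpa was Prss57, a neutrophil serine protease gene, at 0.948, followed by Il10rb at 0.940 and Arl11 at 0.931. The closest to Cebpb were Pbxip1 (0.931), Exoc6b (0.924) and Coq8a (0.922), and to Cebpd Tinagl1 (0.947), Cnpy4 (0.947) and Traf6 (0.936). Cebpe was most like Olfml2b (0.923), Hsd11b1 (0.902) and Lrg1 (0.901), the last a neutrophil granule gene. Spi1 was most like Nob1 (0.970), Abcd2 (0.968) and Rpl28 (0.968), and Gfi1 most like H2-Ob (0.968), Rgs19 (0.959) and Ccl3 (0.959).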

How the data were processed

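The authors deposited a table of gene counts. Trim Galore 0.6.6, STAR 2.7.6a (GRCm38/mm10) and featureCounts are named in the submitters' processing notes, and the library kit was directional per the labels. Strand setting and annotation were not given in the sources used here. Nonzero values were even numbers in 67.1 to 75.9% of cases, so both mates of a pair appear to have been counted. All 12 columns were used; columns named control were read as WT, and their S tags are not the titles' replicate numbers. Of 55471 genes, 55230 matched GENCODE M21 by identifier.

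Counts were filtered with filterByExpr (minimum count 10), which left 17063 genes, scaled by TMM and fitted with edgeR 4.0.16 (R 4.3.3, limma 3.58.1, glmQLFit with robust=TRUE, glmQLFTest, a mean per group over 12 libraries, 6 residual degrees of freedom). P-values were adjusted by Benjamini-Hochberg over all tested genes. Standard errors were the log2 change over the root of its F value. CPM use TMM library sizes, and TPM use the deposited gene lengths and no TMM. Correlations between genes used log2 CPM with a prior count of 2, and those with marker sums used log2 CPM with no prior count. Libraries of a group differed by far more than sampling noise. The script was tested on simulated counts. The robust option was set after the default fit of these data had been run, and the default is the non-robust alternative.

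Members and gene lists were chosen with earlier results of these data known. Every member is named, with the 3 genes most correlated with each. Genes of a list are named from the up to 4 with the smallest p per comparison; not all are printed, and the choice among them was made after their values were seen. The TATA box and TGACG motifs were added after the sequences were seen. Alternatives were RLE factors, library-size scaling, no filter, a mean of 5 CPM as filter, the compared groups alone, DESeq2 1.42.0 and a non-robust fit. Each library of the groups compared was also left out in turn. Tables and plots used Python 3.11.15, pandas 2.3.3, numpy 2.4.6 and matplotlib 3.10.9.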

Additional observations from a re-analysis of the deposited data

How the results depend on the processing

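No paired analysis was possible because the columns carry S tags and not the replicate numbers of the labels. With 1 library left out, a lone library is assumed to vary like the other groups, and the number of members called was 1 to 2 in HOXA9_KO (2 with all libraries), 0 to 1 in Bcat_KO (0), 3 to 5 in dKO (4), 0 to 1 in dKO against HOXA9_KO (0), 3 to 5 in dKO against Bcat_KO (5), 0 to 1 for departure from additivity (0), 1 to 2 in PRMT1_KO (3) and 0 to 0 between the wild types (0). In Bcat_KO 1 member was called under library-size scaling, no filter, a mean of 5 CPM as filter, the compared groups alone and DESeq2, and in dKO against HOXA9_KO 1 was called with no filter. With the compared groups alone 5 members were called in PRMT1_KO and 1 between the wild types. The robust fit was chosen after seeing the data, and under edgeR's default, non-robust fit Cebpd in dKO (adjusted p = 0.0863) and Gfi1 in PRMT1_KO (0.0553) were not called. The causes were not tested.

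Of the changes of single members under all alternatives, 489 kept direction and call, 17 gained the call, 21 lost it and 17 changed sign, none of them a called value. Cebpe did not pass the filter at a mean of 5 CPM and is not in these counts for that alternative. With 1 library left out, Cebpe in HOXA9_KO ran from -3.17 to 0.78, Cebpa in Bcat_KO from -0.033 to 0.14, Cebpd in Bcat_KO from -0.67 to 0.11, and the departure of Cebpa from -0.035 to 0.45. In dKO against HOXA9_KO, Cebpd ran from -0.027 to 0.765, Cebpe from -0.094 to 3.85 and Spi1 from -0.21 to 0.24, and Spi1 was at 0.0012 with RLE factors, 0.0095 with a mean of 5 CPM as filter and 0.00040 with DESeq2. Between the wild types, Cebpb ran from -0.085 to 0.19, Cebpd from -0.095 to 0.69, Cebpe from -1.08 to 0.36 and Gfi1 from -0.23 to 0.059.

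Library-size scaling moved the median of all genes by -0.14 in PRMT1_KO, and the higher share of calls there from 50.9 to 36.4%, and for departure from 53.8 to 41.6%. Counts over all genes moved by more than 1.5 times with 1 library left out in HOXA9_KO (1149 to as few as 521), Bcat_KO (2942 to 1312), dKO (3016 to 1698), departure (1439 to 670) and between the wild types (1294 to 638). With the compared groups alone they were 3041 in dKO against Bcat_KO (4802), 955 for departure and 2294 between the wild types. For dKO against HOXA9_KO the count of 298 was 3 with the compared groups alone, 623 with no filter, 621 with DESeq2 and 168 to 607 with 1 library left out. Cebpe, with 8 to 218 counts, is the member whose depth limits it most.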
